A study of Mus musculus with 8 samples.

Results

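The BCL2 family decides at the mitochondrion whether a cell survives or dies, and 10 of its genes are described here in mouse spleen with and without the microRNA miR-155. The genes are Bcl2, Bcl2l1 and Mcl1, which encode survival proteins, Bax and Bak1, which encode the pore-forming effectors, and Bcl2l11, Bid, Bad, Bbc3 and Pmaip1, which encode the BH3-only death proteins. They were chosen by name, and every array feature annotated with one of these names was taken. Of the 10 genes, 9 had at least 1 feature, among 24171 named genes on the array, and together they had 23 of its 44170 features. No feature named Bbc3 was found in the tables used here, so its level was not analysed here.

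RNA came from the spleens of 4 miR-155 knockout mice and of 4 wild-type mice, and each sample was hybridised with Cy3 to a 1-colour NimbleGen expression array. The knockout animals are named Mim1-5 and Mim1-6, both labelled female, and Mim2-2 and Mim2-3, both labelled male. The wild-type animals are WT-1 and WT-3, labelled female, and WT-2 and WT-4, labelled male. The labels describe no treatment, and strain, age and the way the knockout was made are not given in the sources used here. Among knockout animals the labelled sex and the name prefix coincide, so a difference between males and females there cannot be told apart from one between Mim2 and Mim1 animals.

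BCL2, BCL-XL (the product of Bcl2l1) and MCL1 hold BAX and BAK in check by binding them and the BH3-only proteins. When BH3-only proteins accumulate, BAX and BAK open the outer mitochondrial membrane, cytochrome c is released and caspases are activated. In lymphoid tissue this balance sets how long B and T cells live, and the BH3-only protein BIM (the product of Bcl2l11) is a main trigger of lymphocyte death. miR-155 is a microRNA of activated lymphocytes and myeloid cells that pairs with target transcripts mainly through its seed.

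The mature arms of the microRNA missing from the knockout animals are printed with the seed, bases 2 to 8, in capitals. They are RefSeq sequences on chromosome 16 of build GRCm38.p6, plus strand, from 84714143 to 84714165 for the 5p arm and from 84714182 to 84714202 for the 3p arm.
mmu-miR-155-5p: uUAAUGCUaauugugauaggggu
mmu-miR-155-3p: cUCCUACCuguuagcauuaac
No transcript sequence was searched for these seeds here.

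The promoters of Bcl2 and Bcl2l11 are shown because the survival gene and its BH3-only antagonist lay on opposite sides of the wild type on their brightest features. Each window runs from 250 bases before to 50 bases after a RefSeq transcription start in build GRCm38.p6. The first lies on the minus strand at chr1:106714241-106714540 and the second, the first of 2 Bcl2l11 starts in the table, on the plus strand at chr2:128125788-128126087. Capitals mark GC boxes (GGGCGG, on either strand) and, in Bcl2l11, also the forkhead motif (GTAAACA, on either strand).
Bcl2: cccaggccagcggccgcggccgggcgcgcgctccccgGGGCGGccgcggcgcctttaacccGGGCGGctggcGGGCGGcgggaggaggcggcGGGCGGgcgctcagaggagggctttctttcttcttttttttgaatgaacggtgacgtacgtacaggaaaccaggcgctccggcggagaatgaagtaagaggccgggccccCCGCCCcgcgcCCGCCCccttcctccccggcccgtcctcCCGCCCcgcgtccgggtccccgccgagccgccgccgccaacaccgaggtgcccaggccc
Bcl2l11: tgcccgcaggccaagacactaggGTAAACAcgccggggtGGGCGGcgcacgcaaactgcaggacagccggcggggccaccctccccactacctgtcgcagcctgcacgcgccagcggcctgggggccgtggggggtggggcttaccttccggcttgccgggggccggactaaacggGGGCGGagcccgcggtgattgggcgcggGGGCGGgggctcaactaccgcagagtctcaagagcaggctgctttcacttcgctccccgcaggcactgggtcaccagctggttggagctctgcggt

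The Bcl2 window held 7 GC boxes and the Bcl2l11 window 3, and 35.7% of 32851 promoters of the same length held at least 1. The forkhead motif occurred 1 time in the Bcl2l11 window, and 1 time in 1 of the 3 Bbc3 windows, and 3.65% of all promoters held it. The E-box (CACGTG, which reads the same on both strands) was found in neither printed window and occurred 2 times in that of Bax and 1 time in 1 Bbc3 window, against 7.15% of all promoters with at least 1. The interferon-gamma activated site (TTCNNNGAA, the same on both strands) was found in none of 15 windows of 9 member genes, and 8.3% of all promoters held it. These 9 genes include Bbc3, and no window of Pmaip1 was among the 15. No matches overlapped in the printed windows, and a match describes the sequence alone. The shared GC boxes stand in windows of 76% and 71% G and C, against a median of 52.7% over all promoters.

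Values are log2 of the intensities that the authors deposited, and a gene with several features is represented by its brightest one over all 8 arrays. Levels of different genes were not compared, since each feature has its own probes. Random probes on the array, which match no transcript and serve as background, read 4.94 to 5.24. Median intensities were 112 to 119 on the linear scale, and 81.1% to 85.1% of features lay above the random probes. The arrays of Mim2-2 and Mim2-3 correlated with the other 6 at r = 0.811 to 0.877 over all features, and those 6 with one another at 0.911 to 0.943. Without both Mim2 arrays the knockout minus wild type difference is the one within females, and it was -0.04 for Mcl1, 0.41 for Bax, -0.09 for Bak1, 0.12 for Bid and -0.56 for Bad, with the other 4 members given beside their values. The miR-155 host transcript BIC had log2 intensities of 7.51, 5.37, 5.28 and 5.46 in knockout spleens, against 5.27, 4.84, 4.85 and 5.63 in wild-type spleens. Whether its probes lie in the deleted stretch is not given, so these values check nothing about the genotype. Mean log2 intensities of the sex-linked transcripts Xist and Ddx3y were 9.95 and 7.76 in labelled males, against 10.13 and 7.82 in labelled females, and the labelled sexes overlapped for both. These transcripts do not bear out the sex labels, so males and females here mean animals that carry those labels.

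All 9 brightest features lay above the random probes on all 8 arrays, as did 20 of the 23 features. No member passed the test of knockout against wild type (limma with labelled sex as a term, Benjamini-Hochberg adjusted p of 0.273 to 0.939, threshold 0.05). Nor did any feature of the array, with 0% of 44170 called, although 6122 had an unadjusted p under 0.05. Bcl2 and Pmaip1 were higher on every knockout array than on every wild-type array, and no member was lower on every one. That is 2 of 9 members higher, where 5.27% of 24171 genes were, and 0 of 9 lower, where 2.56% of genes were. The same 2 members had an unadjusted p under 0.05 with a higher level, where 7.7% of genes did, and no member did with a lower level, where 6.62% of genes did. In all, 4 members lay higher and 5 lower in the knockout, with a median difference of -0.08, against 0.06 over all named genes. Over the 23 features, 6 were higher and 17 lower, and the median difference over all 44170 features was 0.03. The 17 hold all 5 features of Bcl2l1 and all 5 of Bcl2l11, and features of 1 gene are not independent.

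**Figure D1:**
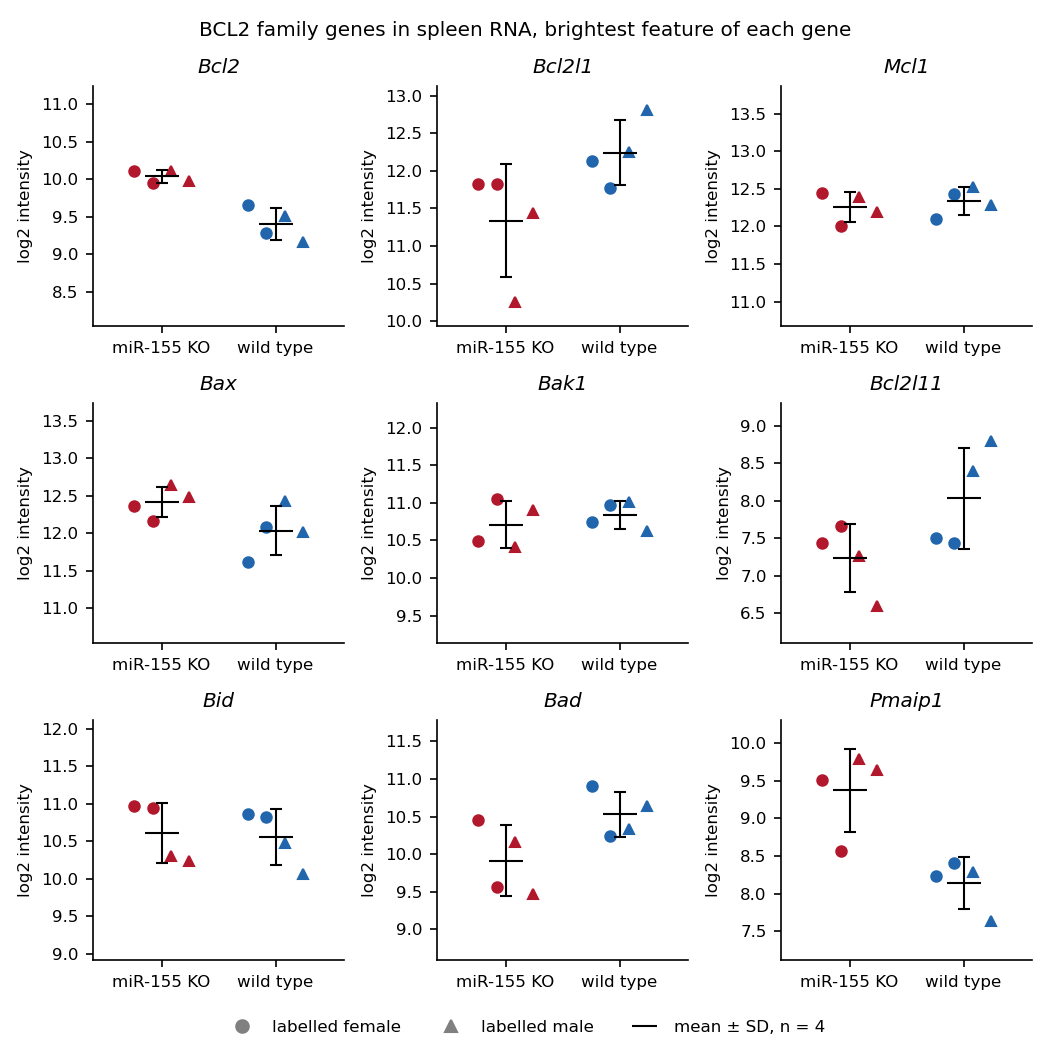
Log2 intensity (vertical axes) of the brightest feature of each of the 9 measured BCL2 family genes in knockout spleens, on the left of each panel, and wild-type spleens, on the right; points are single arrays and bars group means with SD (n = 4 each). The 2 groups do not overlap for Bcl2 and Pmaip1 and overlap for the other 7.

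Among the survival genes, Bcl2 was higher in the knockout on its brightest feature, Bcl2l1 lay lower on each of its features, and Mcl1 differed little. Bcl2, the founding member of the family, was measured by feature BC068988 (MM9, chr1:108608741-108609756). It read 10.11, 9.95, 10.11 and 9.98 in the knockout animals Mim1-5, Mim1-6, Mim2-2 and Mim2-3, against 9.65, 9.51, 9.28 and 9.17 in WT-1 to WT-4. The 4 knockout values lie close together and the lowest of them is 0.30 above the highest wild-type value. Means were 10.04 ± 0.09 in knockout and 9.40 ± 0.22 in wild-type spleens (SD, n = 4 each). The difference was 0.63 ± 0.27 (SE, 95% interval 0.04 to 1.23), a 1.55-fold higher level, with an adjusted p of 0.344 (limma). It was 0.56 in females, that is without both Mim2 arrays, and 0.71 in males.

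The second feature of Bcl2, BC095964, which spans chr1:108438317-108610521, did not show this difference. It read 8.32, 7.27, 7.72 and 7.91 in knockout spleens, against 8.50, 7.89, 7.54 and 8.09 in wild-type spleens. The groups overlap and the difference was -0.20 ± 0.35 (SE, limma, adjusted p = 0.825). The higher Bcl2 level thus rests on 1 of the gene's 2 features, the brighter one.

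Bcl2l1, whose long product BCL-XL protects cells and whose short product BCL-XS opposes it, had 5 features, all lower in the knockout by 0.36 to 1.06 on the log2 scale. Its brightest feature, L35049 (chr2:152606403-152656368), read 11.83, 11.83, 10.25 and 11.44 in knockout spleens, against 12.13, 12.25, 11.77 and 12.81 in wild-type spleens. Mim2-2 was lowest of all 8, and Mim1-5 and Mim1-6 lay inside the wild-type range. Means were 11.34 ± 0.75 in knockout spleens and 12.24 ± 0.43 in wild-type spleens (SD, n = 4 each), a difference of -0.90 ± 0.42 (SE, limma, adjusted p = 0.382). Without both Mim2 arrays the difference was -0.12. The sources used here do not give which product the features follow.

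Mcl1, a short-lived survival protein that lymphocytes need throughout their development, had 3 features that disagreed. The brightest, BC021638 (chr3:95462714-95467101), read 12.44, 12.01, 12.39 and 12.19 in knockout spleens, against 12.10, 12.53, 12.43 and 12.28 in wild-type spleens. The groups lie on top of each other, with a difference of -0.08 and a 95% interval of -0.69 to 0.53 (limma, adjusted p = 0.923). Feature BC005427 read 11.19, 11.07, 11.07 and 11.11 in knockout spleens, against 10.80, 10.88, 10.49 and 10.84 in wild-type spleens. These groups do not overlap, by a gap of 0.19, and the difference was 0.36 ± 0.26 (SE, limma, adjusted p = 0.558). The third and dimmest feature, BC003839, differed by -0.44.

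**Figure D2:**
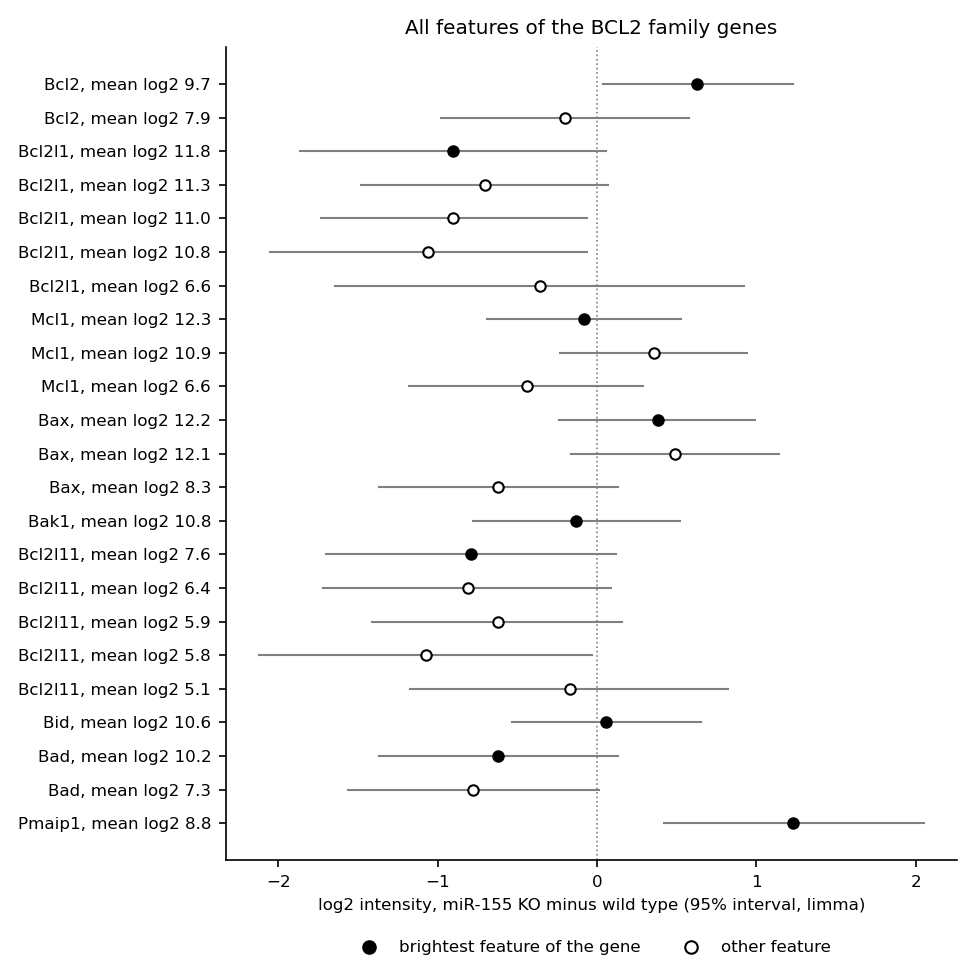
Difference in log2 intensity, knockout minus wild type (horizontal axis), for each of the 23 features of the 9 genes with its 95% interval from limma; filled points are the brightest feature of a gene and open points the others. All 5 features of Bcl2l1 and all 5 of Bcl2l11 lie below 0, while features of Bcl2, Mcl1 and Bax lie on both sides of it.

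Of the effectors, neither differed beyond the spread between animals. Bax, which moves from the cytosol into the mitochondrial membrane on activation, was measured by BC018228 (chr7:52717071-52722190). It read 12.36, 12.17, 12.65 and 12.49 in knockout spleens, against 11.62, 12.43, 12.08 and 12.02 in wild-type spleens. The WT-2 value lies inside the knockout range and the other 3 wild-type values below it. The difference was 0.38 ± 0.27 (SE, 95% interval -0.24 to 0.99, limma, adjusted p = 0.557). A second bright feature, BC053380, differed by 0.49, and the dimmer AY095934 by -0.62, so the direction of Bax depends on the feature. Bak1, which sits in the mitochondrial membrane already in healthy cells, had 1 feature, BC057589 (chr17:27156756-27165523). It read 10.49, 11.05, 10.41 and 10.90 in knockout spleens, against 10.75, 11.01, 10.97 and 10.63 in wild-type spleens. The groups overlap over most of their range, and the difference was -0.13 with a 95% interval of -0.78 to 0.52 (limma, adjusted p = 0.868).

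Among the BH3-only genes, Pmaip1 was higher in every knockout spleen, Bcl2l11 and Bad had lower means, and Bid differed by 0.06. Pmaip1 encodes NOXA, a p53 target that binds MCL1 and hastens its degradation. Its 1 feature, BC050821 (MM9, chromosome 18, 66618270 to 66625198), read 9.51, 8.56, 9.79 and 9.64 in knockout spleens, against 8.23, 8.29, 8.41 and 7.63 in wild-type spleens. All 4 knockout values lie above all wild-type values, with Mim1-6 nearest, at a gap of 0.15. Means were 9.37 ± 0.55 in knockout spleens and 8.14 ± 0.35 in wild-type spleens (SD, n = 4 each). The difference of 1.23 ± 0.36 (SE, 95% interval 0.42 to 2.05) is a 2.35-fold higher level and the largest among the 9 members, with an adjusted p of 0.273 (limma). It was 0.71 in females and 1.75 in males.

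For Bcl2 and Pmaip1, whose groups do not overlap, exact permutation of the array labels (two-sided, 70 arrangements) gave p = 0.0286, the smallest it can give with 4 arrays against 4. This p follows from the lack of overlap alone, adds nothing to it, and takes no account of labelled sex. For the other 7 members the permutation gave 0.0857 to 0.857.

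Bcl2l11 encodes BIM, which binds all survival proteins of the family. Its brightest feature, BC019556 (chr2:127951779-127984362), read 7.43, 7.66, 7.26 and 6.60 in knockout spleens, against 7.50, 8.39, 7.44 and 8.80 in wild-type spleens. Mim2-3 was lowest, and the highest values were those of WT-2 and WT-4, labelled male, while the animals labelled female read 7.43 to 7.66 over both genotypes. Means were 7.24 ± 0.45 in knockout spleens and 8.03 ± 0.67 in wild-type spleens (SD, n = 4 each), a difference of -0.79 ± 0.40 (SE, limma, adjusted p = 0.414). All 5 features of Bcl2l11 were lower, by 0.17 to 1.07 on the log2 scale, and 2 of the 5 lay above the random probes on all 8 arrays. Without both Mim2 arrays the brightest feature differed by 0.08.

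Bad, whose product is held inactive by phosphorylation downstream of survival signals, was measured by AK169002 (chr19:7017086-7026383). It read 10.46, 9.56, 10.16 and 9.47 in knockout spleens, against 10.90, 10.34, 10.24 and 10.64 in wild-type spleens. Mim1-6 and Mim2-3 lie below all others, and Mim1-5 lies inside the wild-type range. The difference was -0.62 ± 0.33 (SE, 95% interval -1.37 to 0.13, limma, adjusted p = 0.438), and its second feature BC006762 differed by -0.78. Bid, which caspase-8 cleaves to link death receptors to mitochondria, had 1 feature, BC002031 (chr6:120843136-120866838). It read 10.97, 10.95, 10.30 and 10.24 in knockout spleens, against 10.86, 10.48, 10.83 and 10.06 in wild-type spleens. Each knockout value has a wild-type value near it, and the difference was 0.06 with a 95% interval of -0.53 to 0.65 (limma, adjusted p = 0.939).

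On their brightest features, Bcl2l1, Bcl2l11 and Pmaip1 differed more between knockout and wild type in males than in females. No member passed the test of that difference. Within males, that is Mim2-2 and Mim2-3 against WT-2 and WT-4, Bcl2l11 differed by -1.66 ± 0.39 (SE, limma, adjusted p = 0.056, n = 2 each). Within females it differed by 0.08 ± 0.39, and the male minus female difference of these contrasts was -1.74 ± 0.55 (limma interaction, adjusted p = 0.257). The pattern of Bcl2l11 depended on the feature. BC058175, its other feature above the random probes on all 8 arrays, differed by -0.43 in males and -0.82 in females. AK162975 differed by -1.59 in males and -0.56 in females, AK037885 by -1.02 and -0.61, and AK031285 by -0.19 and -0.16. Bcl2l1 differed by -1.69 ± 0.48 in males (limma, adjusted p = 0.087) and by -0.12 ± 0.48 in females, with an interaction of -1.57 ± 0.68 (limma, adjusted p = 0.376). For Pmaip1 the interaction was 1.04 ± 0.63 and for Bcl2 0.14 ± 0.50 (limma, adjusted p = 0.513 and 0.928). An unadjusted interaction p under 0.05 was seen in 2 of 9 members, where 13.6% of genes had one. Within males an unadjusted p under 0.05 was seen in 3 of 9 members, where 24.2% of genes had one. Within females it was seen in 0 of 9 members, where 5.15% of genes had one.

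One Bcl2l1 feature passed the adjusted test within males. AK172250 read 11.20, 11.01, 9.05 and 9.78 in knockout spleens, against 11.54, 11.40, 10.85 and 11.49 in wild-type spleens. The Mim2 arrays lie more than 1 log2 unit below the other 6. Within males it fell by 2.03 on the log2 scale, with an SE of 0.42 (limma, adjusted p = 0.0428), and it was 1 of 23 member features called there, where 4.24% of 44170 features were. In males the knockout arrays are the 2 that stand apart from the rest of the series, and genotype and that distance cannot be told apart there.

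**Figure D3:**
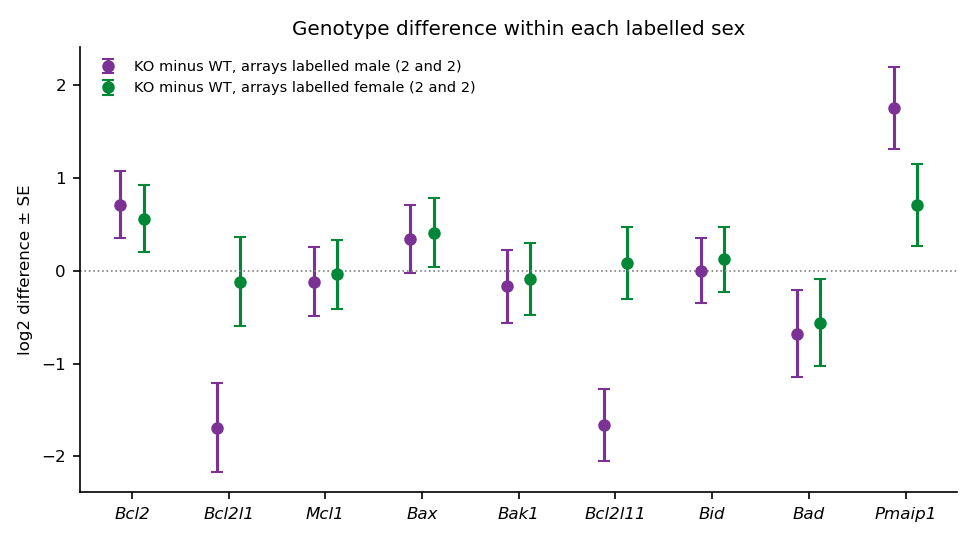
Difference in log2 intensity, knockout minus wild type, with its standard error, for the brightest feature of each of the 9 genes within labelled males and within labelled females (n = 2 animals per genotype and sex). Bcl2l1 and Bcl2l11 lie at -1.69 and -1.66 in males and at -0.12 and 0.08 in females, while the 2 estimates for Bcl2 lie side by side at 0.71 and 0.56.

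Marker lists of other cell types were higher or lower on the same arrays as several of these genes. The 10 B cell markers all lay above the random probes on all 8 arrays. Their mean log2 intensity was 9.36 to 10.36 in knockout spleens, against 8.22 to 8.77 in wild-type spleens. Of them, 8 had an unadjusted p under 0.05 with a higher level, where 7.7% of genes did. The 10 T cell markers, also all above the random probes, averaged 8.96 to 9.67 in knockout spleens, against 8.19 to 8.77 in wild-type spleens. The 10 pancreas markers averaged 6.92 to 7.58 in knockout spleens, against 5.71 to 6.03 in wild-type spleens, with Cpa1, Clps, Pnlip, Cel and Ins1 at or below the random probes on at least 1 array. Bcl2 and Pmaip1 were higher on the same 4 arrays as these 3 lists, and the part of the lists in that result was not tested. In spleen RNA, more cells of a type and more transcript per cell cannot be told apart. The 10 neutrophil markers, cells in which Bcl2a1 genes and Mcl1 are survival factors, averaged 7.99 to 8.26 in knockout spleens, against 8.90 to 9.11 in wild-type spleens. Of them Ngp, Ly6g, Elane and Mmp8 were at or below the random probes on at least 1 array. Of the 10, 8 were lower and 2 higher. The groups did not overlap for 2 of the lower ones, Camp (-1.67) and Mpo (-1.19). Such a separation with a lower level was seen in 2.56% of 24171 genes. The largest differences were those of Ltf (-2.33) and Lcn2 (-1.83), with overlap between the groups for both. Both were lowest in Mim2-2 and Mim2-3, as the mammary list below was. Within females Ltf differed by -1.93 and Lcn2 by -0.40. The part of other cell types in these values was not tested. S100a8 and S100a9 were highest in Mim2-3, a knockout array, so the list mean does not stand for each marker.

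Mim2-2 and Mim2-3 read lowest for the brightest features of Bcl2l1 and Bcl2l11 and for the mean of mammary epithelium markers. The order of arrays differed, since Bcl2l11 was lowest in Mim2-3 and the mammary list in Mim2-2. Among wild-type arrays Bcl2l11 was highest in WT-4 and WT-2, and the mammary list in WT-1. The 14 mammary markers averaged 10.25, 10.37, 7.36 and 8.98 in Mim1-5, Mim1-6, Mim2-2 and Mim2-3, against 11.40, 10.89, 10.91 and 11.09 in WT-1 to WT-4. Of the 14, Wap, Glycam1, Cldn3 and Cldn4 were at or below the random probes on at least 1 array. The labelled tissue is spleen on all 8 arrays, and its B and T cell markers are present on all of them, beside these mammary transcripts. Adipocyte markers, 5 of 6 measured, averaged 11.02 and 10.75 in Mim2-2 and Mim2-3 and 7.27 and 7.56 in the Mim1 animals, against 7.63 to 7.82 in wild-type spleens. Macrophage markers averaged 10.28 to 10.80 in knockout spleens, against 9.87 to 10.38 in wild-type spleens, and erythroid markers, 8 of 10 measured, averaged 8.22 to 9.35 in knockout spleens, against 9.09 to 9.35 in wild-type spleens. The part of these cell types in the values of Bcl2l1 and Bcl2l11 was not tested.

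**Figure D4:**
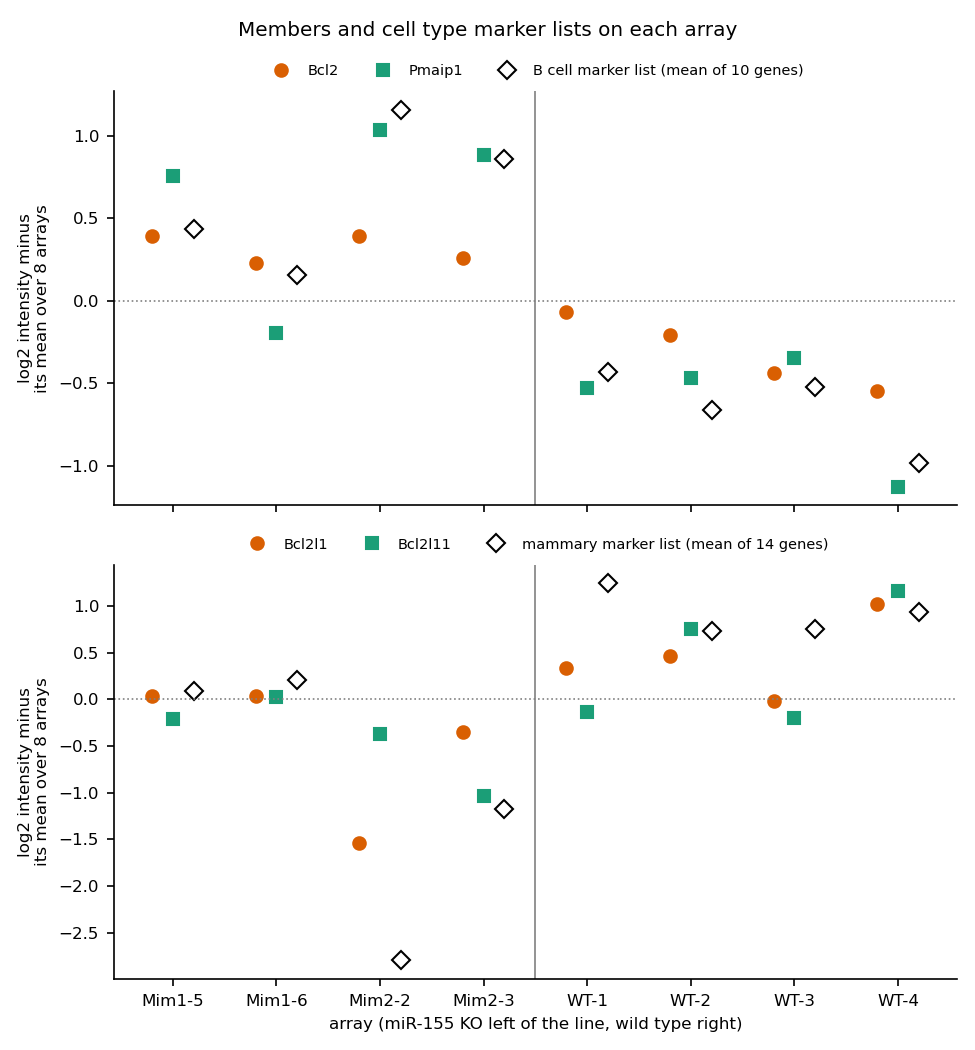
Log2 intensity minus its mean over the 8 arrays (vertical axes) for Bcl2, Pmaip1 and the mean of 10 B cell markers in the upper panel and for Bcl2l1, Bcl2l11 and the mean of 14 mammary markers in the lower panel, with knockout arrays left of the line. Mim2-2 and Mim2-3 are the highest arrays for the B cell list and the lowest for the mammary list.

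The rest of the family was read from 14 further BCL2 genes, all measured, of which 0 passed the adjusted test. At an unadjusted p under 0.05, 3 were higher and 1 was lower. Over all named genes 7.7% were higher and 6.62% lower at that p, shares that serve for the lists below as well. Every knockout array lay above every wild-type array in 5.27% of genes and below in 2.56%, and these shares also serve below. The median difference of the 14 was -0.06, against 0.06 over all named genes. The 3 higher ones were the A1 genes, NF-kB-driven survival factors of lymphocytes and granulocytes. Bcl2a1a read 10.05, 9.50, 10.75 and 10.61 in knockout spleens, against 9.38, 9.34, 8.27 and 8.79 in wild-type spleens, a difference of 1.29 ± 0.35 (SE, limma, adjusted p = 0.266). Its groups do not overlap. Bcl2a1d differed by 1.12 and Bcl2a1b by 1.04 (limma, adjusted p = 0.279 and 0.327), and since these genes are near-identical copies, their probes may read one another's transcripts. Bcl2l2, the survival gene for BCL-W, read 10.18, 9.49, 7.17 and 8.16 in knockout spleens, against 9.87, 9.51, 10.04 and 10.52 in wild-type spleens. It was low in the Mim2 animals and within the wild-type range or close to it in the Mim1 animals, with a difference of -1.24 ± 0.52 (SE, limma, adjusted p = 0.344).

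Downstream of the mitochondrion, 20 genes of the apoptosome, the caspases and their inhibitors were all measured, and 0 passed the adjusted test. At an unadjusted p under 0.05, 1 was higher and 2 were lower, with a median difference of -0.03. The channel gene Vdac1 differed by -1.59 and was lowest in Mim2-2 and Mim2-3. Birc2, which encodes an inhibitor of apoptosis of the cIAP type, differed by 0.68 with no overlap between the groups.

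Of p53 and its targets, 11 of 12 were measured and 0 passed, with 1 higher and 1 lower at an unadjusted p under 0.05 and a median of 0.10. Trp53, which encodes p53, read 12.66, 13.23, 12.74 and 12.81 in knockout spleens, against 11.93, 12.50, 12.36 and 11.76 in wild-type spleens. Like its target Pmaip1 it was higher on every knockout array, by 0.72 ± 0.30 (SE, limma, adjusted p = 0.344). Another p53 target, the cell cycle inhibitor Cdkn1a, read 9.78, 10.51, 7.20 and 7.68 in knockout spleens, against 10.86, 10.22, 10.68 and 11.05 in wild-type spleens. It lay on the other side from Pmaip1 and differed by -1.91 ± 0.53 (SE, limma, adjusted p = 0.266), with the Mim2 animals lowest. Sesn2 differed by -0.78 and Trp53inp1 by 0.50.

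The 11 death receptor genes, upstream of Bid, held 0 that passed, with 0 higher and 1 lower at an unadjusted p under 0.05 and a median of 0.16. The receptor gene Tnfrsf1a differed by -1.16 and Tnfrsf10b by -0.80, the adaptor gene Tradd by 0.64 and the caspase-8 inhibitor gene Cflar by 0.52. Both receptor genes were lowest in Mim2-2 and Mim2-3. Within females the differences were -0.01 for Tnfrsf1a, 0.03 for Tnfrsf10b, 0.32 for Tradd and 0.06 for Cflar. Of 12 regulators of BH3-only proteins and MCL1, 0 passed, and at an unadjusted p under 0.05 2 were higher and 0 lower, with a median of -0.02. Mapk8, which encodes the kinase JNK1, differed by 0.89, and Huwe1, a ubiquitin ligase of MCL1, by 0.83. Both were higher on every knockout array, where 5.27% of genes were. Akt1, whose kinase phosphorylates BAD, read 11.05, 11.28, 10.38 and 10.58 in knockout spleens, against 11.33, 11.39, 11.37 and 11.48 in wild-type spleens. All 4 knockout values lie below all wild-type values, and the difference was -0.57 (limma, adjusted p = 0.407). Fbxw7, another ligase of MCL1, differed by -0.53 and was lowest in Mim2-2 and Mim2-3.

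The 12 lymphocyte survival signals, which act above the BCL2 family, had the highest median of the 6 pathway lists, 0.55. Of the 12, 7 were higher and 5 lower, and 0 passed the adjusted test. At an unadjusted p under 0.05, 6 were higher, where 7.7% of genes were, and 0 lower, where 6.62% were. In 5 every knockout array lay above every wild-type array, where 5.27% of genes did. Tnfrsf13b, the receptor TACI of B cells, averaged 11.48 ± 0.40 in knockout spleens, with a lowest value of 11.13, against 9.86 ± 0.54 in wild-type spleens, with a highest value of 10.53 (SD, n = 4 each), a difference of 1.61 ± 0.35 (SE, limma, adjusted p = 0.262). Tnfrsf13c, the BAFF receptor gene, differed by 1.36, Il2rg, the common chain of several interleukin receptors, by 1.41, and Pik3cd, a lymphocyte PI3 kinase, by 1.55 (limma, adjusted p = 0.262 for each). These 4 genes are expressed by B or T cells, whose marker lists were higher on the same arrays. The part of those cells in the 4 differences was not tested.

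**Figure D5:**
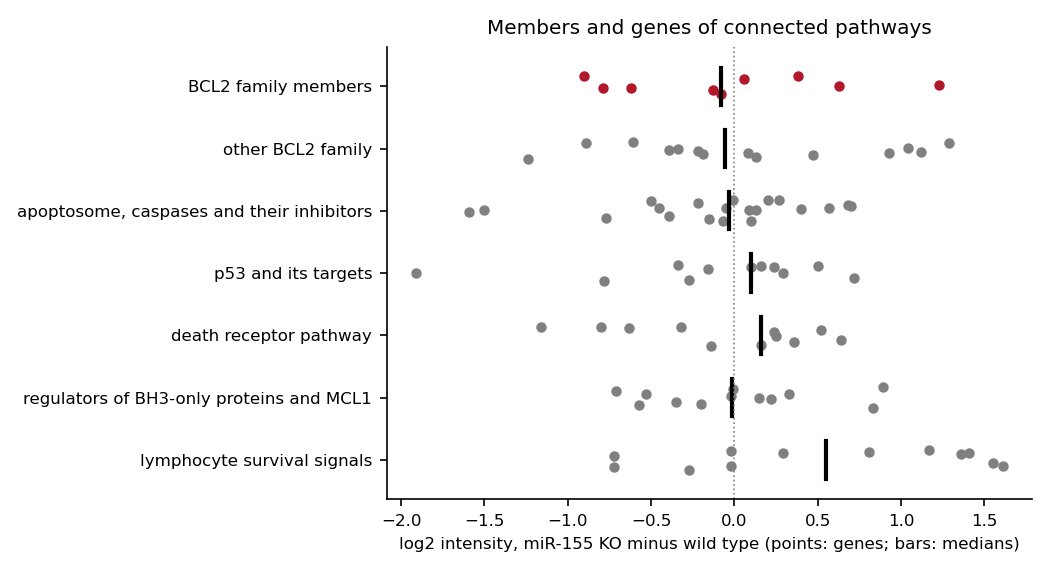
Difference in log2 intensity, knockout minus wild type, of each measured gene of the BCL2 family members and the 6 pathway lists; each point is a gene and the short bars are list medians. The lymphocyte survival signals have a median of 0.55, and those of the other 6 groups lie between -0.08 and 0.16.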

How the data were processed

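RNA of 8 mouse spleens was hybridised to 1-colour arrays. For each array the authors deposited feature intensities on a linear scale, made with RMA (background correction, normalization between arrays, probe summary) per the submitters' processing notes, which give no version. Per the file headers, positions are those of MM9, and 44155 of 44170 features rest on 3 probes. A standard error score per feature, also deposited, entered no test. The deposited series table holds 21856 of these features with equal values, within a relative tolerance of 1e-06.

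The log2 of each deposited intensity was taken without normalizing again. Current symbols came from the RefSeq table of GRCm38.p6, where 21583 of 24203 Entrez numbers matched. All members are named, and of each pathway list the 4 genes with the smallest p among those above the random probes on all arrays, of which 2 are not reported here. The feature with the highest mean log2 over the 8 arrays stands for a gene. Differences were tested, two-sided, in limma (version 3.58.1, R 4.3.3, lmFit then eBayes), with labelled sex as a term and Benjamini-Hochberg adjustment over all 44170 features, threshold 0.05. A second fit had a term per genotype and labelled sex. The fits were tested on simulated arrays. The first simulation, with unmoderated spreads, recovered fewer of the large changes than the target set for it, and the moderated spreads were used after that. The number of arrays limits the precision.

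The members, lists and motifs were chosen with earlier results of these data known. The background of the adjusted test within males and the comparison of labelled sexes were added after values had been seen. Alternatives covered the source of values, normalization, filter, floor, variance model, array weights, the sex term, other features and left-out arrays.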

Additional observations from a re-analysis of the deposited data

How the results depend on the processing

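No member was called under any of 18 alternatives. Over all features 0 were called in 16 of them, 16 with a trended and robust variance (7 higher, 9 lower), and 263 without both Mim1 arrays (23 higher, 240 lower). Members with an unadjusted p under 0.05 numbered 2, 1 to 2 when 1 array was left out, 0 without both Mim2 arrays, and 3 with the trended and robust variance or without both Mim1 arrays. In the settings with 1, which left out Mim1-5, Mim2-2, Mim2-3, WT-2 or WT-4, it was Pmaip1. The second member was Bcl2 without WT-1, Bcl2l11, with a lower level, without Mim1-6 and Bcl2l1, with a lower level, without WT-3. Bcl2 was thus above 0.05 in the other 7 of 8 fits with 1 array left out, with unadjusted p of 0.0533 to 0.0942 (limma). The interaction gave 0 called features, but 311 with the series table and 578 with the trended and robust variance. Directions turned for Bcl2 with its other feature (-0.20), for Mcl1 without Mim1-6 (0.0023) or with feature BC005427 (0.36), for Bcl2l11 without both Mim2 arrays (0.08), for Bax with feature AY095934 (-0.62), and for Bid without WT-4 (-0.01) or without both Mim1 arrays (-0.0013). The cause was not tested. With other features left aside, differences ranged from 0.55 to 0.72 for Bcl2, 0.71 to 1.75 for Pmaip1, -1.69 to -0.12 for Bcl2l1 and -0.81 to -0.45 for Bad. With 1 array left out they ranged from -0.17 to 0.0023 for Mcl1 and from -0.01 to 0.16 for Bid. With 2 animals per genotype and labelled sex, the contrasts within a sex rest on few arrays. No paired analysis was possible because the labels give no pairing of knockout with wild-type animals.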

Other observations

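Bid separated the labelled sexes and not the genotypes, as was seen after its values had been examined. It read 10.06 to 10.48 on the arrays labelled male, against 10.83 to 10.97 on those labelled female, with means of 10.27 and 10.90. The male minus female difference was -0.63 ± 0.26 (SE, limma, adjusted p = 0.551), and 1.63% of 24171 genes lay lower on every male array than on every female one. No feature passed the adjusted test for labelled sex, and the other 8 measured members overlapped between the labelled sexes. The male arrays include Mim2-2 and Mim2-3.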
